A study of Mus musculus with 4 samples.

Results

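Peripheral tissue antigens, proteins of other organs that the thymic epithelium also makes, were followed through 10 genes: Csn2, Hamp, Il13, Prg2, Lyz1, Defb6, Calcb, Slc22a22, Abca12 and Fcgbp. They are 10 of the 32285 features counted in every library. They were chosen either as leading genes of the Aire-high epithelial cells or because they were much lower in mutant epithelium, so their levels in these cells and their difference between genotypes were used to choose them and are given below as a description, without a test. The data are droplet single-cell RNA-seq of CD45- thymic stroma from untreated C57BL/6 mice aged 6 months, with 2 wild-type libraries (WT, the mock arm of the allele) and 2 libraries homozygous for the LacZ allele of Foxn1 (Z/Z). Foxn1 encodes the master transcription factor of the thymic epithelial cell (TEC), and the LacZ allele is a hypomorph whose Foxn1 level falls early in postnatal life. Cells came from pooled thymi that were digested, depleted of CD45+ cells and sorted, and nothing in the labels says that the 2 libraries of a genotype are separate animals, so a p-value measures only the spread between these libraries. The labels give the sex as both female and male, in different fields, and sex was not used.

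Medullary TECs display proteins of other organs to developing T cells, which are deleted or diverted when they bind them too strongly. Aire, a nuclear protein of mature medullary TECs, releases transcription at many such genes, each in a small and varying fraction of the cells, while Fezf2 serves another part of the repertoire. After the Aire stage, some medullary TECs take on features of other epithelia, such as skin, gut M cells or tuft cells, and such cells are called mimetic cells.

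Wherever 4 values follow each other, they stand in the order WT 1, WT 2, Z/Z 1, Z/Z 2. The kept cells numbered 1458, 456, 4455 and 3477. TECs numbered 552, 104, 1987 and 1549, with a median of 15596, 16293.5, 5997 and 6271 UMIs (unique molecular identifiers, 1 for each captured RNA molecule) per cell. Of the epithelial clusters, the one with the most Aire held 276, 47, 58 and 80 cells and is called the Aire-high cluster here. It made up 50%, 45.2%, 2.92% and 5.16% of the TECs, and its cells had a median of 21617, 27532, 21857.5 and 25392.5 UMIs. The members, the gene lists and the marker genes were held out of the clustering. CPM stands for the UMIs of a gene scaled to 1000000 UMIs of the cells summed. The cluster was chosen by its Aire, so its 433 CPM against 2.93 in the other TECs checks nothing. The label of the cluster was checked on Fezf2, at 314 CPM against 10.7, and on the costimulatory ligand Cd80, at 478 CPM against 5.68. Barcodes were shared between libraries of 1 genotype more than between genotypes, with 202 called in both WT libraries and 249 in both Z/Z libraries. Of these, 8 lay in the Aire-high cluster of both WT libraries and 0 in that of both Z/Z libraries.

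By GENCODE (GRCm38) the genes, all protein coding, lie as follows. The secreted and neuropeptide genes are Csn2 (ENSMUSG00000063157) at chr5:87692624-87699630 on the minus strand, Hamp (ENSMUSG00000050440) at chr7:30942368-30944032 on the minus strand and Calcb (ENSMUSG00000030666) at chr7:114718643-114723365 on the plus strand. The genes shared with blood cells and host defence are Il13 (ENSMUSG00000020383) at chr11:53631324-53634702 on the minus strand, Prg2 (ENSMUSG00000027073) at chr2:84980461-84983632 on the plus strand, Lyz1 (ENSMUSG00000069515) at chr10:117287797-117292868 on the minus strand and Defb6 (ENSMUSG00000050756) at chr8:19225478-19228209 on the plus strand. The transporters and the mucus gene are Slc22a22 (ENSMUSG00000022366) at chr15:57243767-57477625 on the minus strand, Abca12 (ENSMUSG00000050296) at chr1:71242276-71414910 on the minus strand and Fcgbp (ENSMUSG00000047730) at chr7:28071236-28120862 on the plus strand.

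The start sites of the members are shown first because several of the genes share a plain feature of sequence there. RefSeq (GRCm38.p6) gave start windows for 8 of the 10 genes, and Prg2 and Calcb are named only. The 80 bases before the start are printed 5′ to 3′ on the strand of the gene, with capitals on each run of the letters TATA that begins 40 to 20 bases before the start. The set holds 4 genes with such a run and, for contrast, Abca12 without one. The windows lie at chr5:87699426-87699505 for Csn2 (minus strand), chr11:53634703-53634782 for Il13 (minus), chr8:19225398-19225477 for Defb6 (plus), chr7:28071156-28071235 for Fcgbp (plus) and chr1:71414911-71414990 for Abca12 (minus), each directly before a start that RefSeq gives.
Csn2: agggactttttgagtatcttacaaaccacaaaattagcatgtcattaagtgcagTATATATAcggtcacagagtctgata
Il13: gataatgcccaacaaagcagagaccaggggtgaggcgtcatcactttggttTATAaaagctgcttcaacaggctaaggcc
Defb6: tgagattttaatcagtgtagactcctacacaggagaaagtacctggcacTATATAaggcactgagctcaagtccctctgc
Fcgbp: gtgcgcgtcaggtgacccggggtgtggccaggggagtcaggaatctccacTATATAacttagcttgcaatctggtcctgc
Abca12: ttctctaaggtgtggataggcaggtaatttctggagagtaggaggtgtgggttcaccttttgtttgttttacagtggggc

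TATA in that position stood in 5 of the 9 windows of the 8 genes (Slc22a22 has a pair of windows, of which 1 held it) and in 5.81% of all 32851 windows of the table. This motif was chosen after the windows had been read. The GC box GGGCGG, searched on both strands over 250 bases, was in 0 of the 9 windows and in 32.7% of all, and the CCAAT box, searched likewise, was in 3 of 9 and 33.8%. The 250 bases held a median of 2 CpG dinucleotides in the members, with a range of 0 to 5, and 6 over all windows. TGANTCA, the letters that AP-1 factors bind (both strands), stood in 1 member window, that of Hamp, and in 6.75% of all. The motifs were counted separately, with no check of whether matches overlap, and a match is a string of letters, not a bound site.

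Across all TECs, every member was lower in both Z/Z libraries than in both WT libraries. Of all 18861 genes tested, 38.7% had both Z/Z libraries below both WT libraries and 28.3% had them above, and since the members were chosen in part on this contrast, their count says nothing more. A sum over TECs mixes the number of Aire-high cells with the RNA in each, and the 2 cannot be told apart from the sum alone. The plot of levels by library sets the sums over all TECs beside those within the Aire-high cluster, where the order of the libraries was different for several members.

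**Figure D1:**
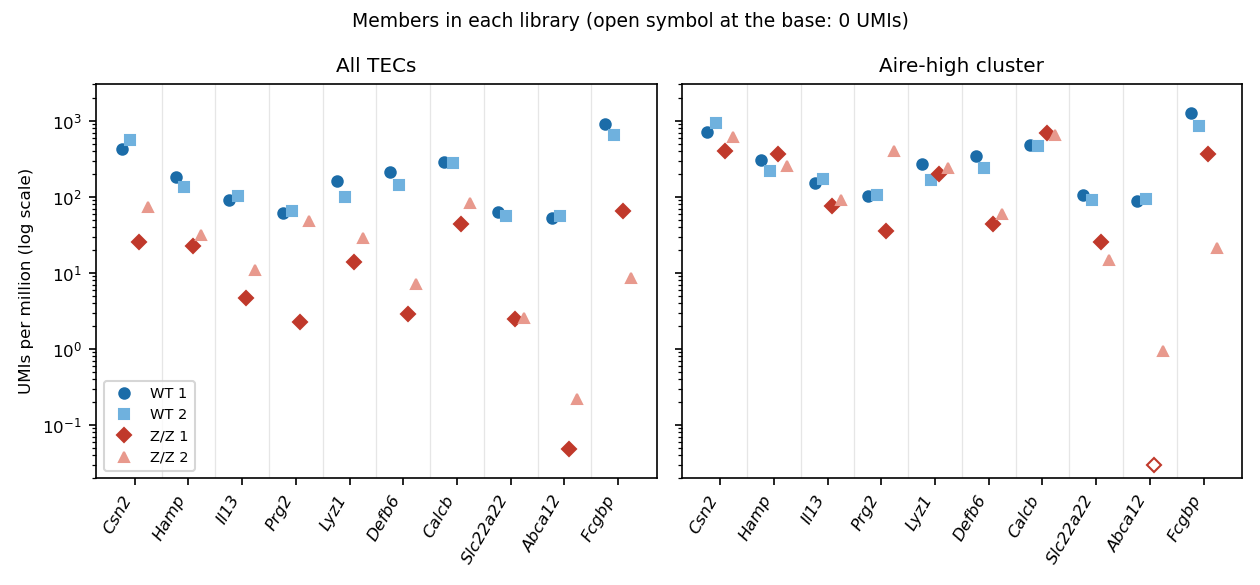
CPM (log axis) of the 10 members in each library, over all TECs on the left and over the Aire-high cluster on the right; each symbol is 1 library, and an open symbol at the base is a library with 0 UMIs. On the left all 4 libraries separate by genotype for every member, and on the right Hamp, Lyz1 and Prg2 overlap while Calcb is higher in Z/Z.

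Among the secreted food and hormone proteins, Csn2, the β-casein of milk, reached 422 and 564 CPM in WT TECs and 25.5 and 73.0 CPM in Z/Z TECs. Its fitted log2 fold change (Z/Z over WT, edgeR, with the standard error) was -3.19 ± 0.52 in TECs. In Aire-high cells it was at 712, 935, 403 and 606 CPM, a log2 fold change of -0.70 ± 0.29. The Z/Z libraries lay below the WT libraries in both sets of cells.

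Hamp, which encodes hepcidin, the liver hormone that restrains iron export, went from 182 and 134 CPM in WT TECs to 22.8 and 31.4 CPM in Z/Z TECs, a log2 fold change of -2.41 ± 0.23. In the Aire-high cluster its 4 libraries were at 305, 221, 362 and 252 CPM and overlapped, with a log2 fold change of 0.21 ± 0.25. Hamp2, its near-identical neighbour, could share reads with it, and it overlaps Gm44662 on the other strand, so its level is uncertain.

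Calcb encodes the β form of calcitonin gene-related peptide, a sensory neuropeptide. It was at 289 and 283 CPM in WT TECs and at 44.4 and 82.5 CPM in Z/Z TECs (log2 fold change -2.04 ± 0.30). Among Aire-high cells it was the 1 member with both Z/Z libraries, 689 and 656 CPM, above both WT libraries, 477 and 467 CPM. That log2 fold change was 0.51 ± 0.16, and 24.6% of the 12507 genes tested in the cluster had both Z/Z libraries above both WT libraries.

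Of the members known from blood cells, Il13, the type 2 cytokine that drives mucus and IgE responses, was at 89.6 and 104 CPM in WT TECs and 4.68 and 10.9 CPM in Z/Z TECs (log2 fold change -3.50 ± 0.42). In Aire-high cells it was at 151, 173, 75.9 and 91.7 CPM, lower in Z/Z with no overlap (log2 fold change -0.94 ± 0.22). In this cluster 25.2% of all genes tested had both Z/Z libraries below both WT libraries.

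Prg2 encodes the major basic protein of eosinophil granules. It was at 60.5 and 64.3 CPM in WT TECs, 2.24 CPM in Z/Z 1 and 48.4 CPM in Z/Z 2, so that 1 mutant library was near the WT level and the other far below it. A single cell of Z/Z 2 held 554 of that library's 879 Prg2 UMIs, or 63.0%, and without it the library was at 17.9 CPM. Its log2 fold change was -1.17 ± 1.16 in TECs and 1.12 ± 1.01 within the Aire-high cluster, where the libraries were at 102, 106, 35.1 and 405 CPM and overlapped. Within the cluster the fitted value was -1.59 without Z/Z replicate 2 and 2.02 without Z/Z replicate 1, and without the highest cell of each library the log2 ratio of the mean CPM went from 1.08 to 0.05.

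Lyz1, the lysozyme of Paneth cells in the small intestine, was at 159.5, 98.8, 13.7 and 28.8 CPM in TECs (log2 fold change -2.47 ± 0.41) and at 269, 164, 202 and 240.1 CPM in the Aire-high cluster (0.03 ± 0.28). One WT 1 cell held 1203 of 1959 Lyz1 UMIs and 1 WT 2 cell held 161 of 229. Without the highest cell of each library, the log2 ratio of the mean CPM over TECs went from -2.60 to -1.73, and within the Aire-high cluster from 0.03 to 0.82. The near-identical Lyz2 lies next to it, and reads could be split between them, which was not tested, so the level of Lyz1 is uncertain.

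Defb6, a β-defensin of skin, airway and muscle, was at 209.9, 145, 2.87 and 7.05 CPM in TECs, a log2 fold change of -5.03 ± 0.47. Unlike Hamp and Lyz1 it also stayed apart within the Aire-high cluster, at 340.3, 239, 43.9 and 58.6 CPM (-2.48 ± 0.28). The highest cell held 58.8% of its UMIs in WT 2, and without the highest cell of each library the log2 ratio within the cluster moved from -2.50 to -2.15.

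Among the membrane and mucus proteins, Slc22a22, an organic anion transporter of the kidney that carries prostaglandins, was at 62.5, 55.2, 2.48 and 2.53 CPM in TECs (-4.41 ± 0.21). In Aire-high cells it was at 104, 91.6, 25.6 and 14.9 CPM (-2.31 ± 0.31). The Z/Z values rest on 32 UMIs in each library, found in 3 and 10 cells. The gene overlaps Gm18094 and Gm49229 on the other strand.

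Abca12, the transporter that loads lipid into the lamellar granules of the epidermis, was at 52.8 and 56.1 CPM in WT TECs and at 0.0487 and 0.22 CPM in Z/Z TECs. These values are 648, 130, 1 and 4 UMIs. In the Aire-high cluster 17 of 323 WT cells held 764 UMIs and 1 of 138 Z/Z cells held 2, a ratio of UMI rates of 150.2 with a counting interval (95%, exact) of 41.4 to 1242. UMIs of 1 cell are not independent draws of cells, and 129 of the 130 Abca12 UMIs of WT 2 came from 1 cell. The share of cells with a UMI was 5.80% (WT 1), 2.13% (WT 2) and 1.25% (Z/Z 2). For Z/Z 1, with 0 of 58 cells, a limit taken as 3 counts over its cells was 5.17%. When each cell was thinned to 2000 UMIs, the exact 95% intervals were 1.31% to 5.86% in WT 1 and 0% to 6.27% in Z/Z 1. These intervals overlap. A difference in the share of cells was not tested. The fitted log2 fold changes were -8.47 ± 0.45 over TECs and -7.17 ± 0.57 within the cluster.

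Fcgbp, a mucin-like protein of goblet cells that binds the Fc part of IgG, was at 912, 657, 64.5 and 8.60 CPM in TECs (-4.27 ± 0.94). In Aire-high cells it was at 1248, 857, 362 and 20.9 CPM (-2.50 ± 1.16), and the mutant libraries stood far apart from each other. Leaving out a mutant library moved the second value to -5.59 (without Z/Z replicate 1) or -1.57 (without Z/Z replicate 2). It is the member with the most signal outside the Aire-high cluster, described further below.

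**Figure D2:**
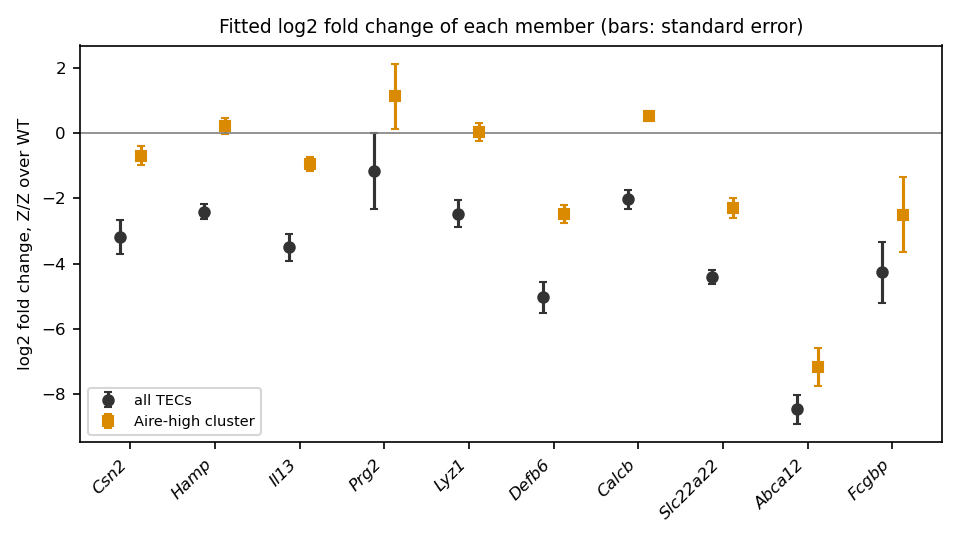
Fitted log2 fold change (Z/Z over WT, vertical axis) of each member over all TECs (circles) and within the Aire-high cluster (squares), with bars for 1 standard error, n = 2 libraries per genotype. All 10 circles lie below 0, while the squares run from -7.17 for Abca12 to 1.12 for Prg2.

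Read across the members, 6 stayed lower in both Z/Z libraries within the Aire-high cluster (Csn2, Il13, Defb6, Slc22a22, Abca12 and Fcgbp), 1 was higher (Calcb) and 3 overlapped (Hamp, Prg2 and Lyz1). Of all genes tested in the cluster 25.2% were lower in this sense and 24.6% higher, and nothing is read from the members' count, since the same contrast helped to choose them. Without its highest cell, WT 2 held 0 CPM of Abca12 in the cluster, as Z/Z 1 did. The cluster itself held more Aire per UMI in Z/Z, at 369, 402, 677 and 526 CPM, though its log2 difference of 0.64 ± 0.19 missed the threshold (adjusted p = 0.29, edgeR quasi-likelihood). Across this cluster the test called 2 of 12507 genes, 0.008% in each direction: Gm3880 higher (log2 fold change 9.29 ± 0.45, adjusted p = 0.044) and Gm94 lower (-6.75 ± 0.38, adjusted p = 0.047), both named after their values were seen. At an unadjusted p under 0.05 it gave 1811 genes, and DESeq2 called 205. Without any 1 of the 4 libraries the count was 0.

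The members were not spread over the epithelium. Of all their TEC UMIs, 91.9%, 93.3%, 73.2% and 94.7% lay in the Aire-high cluster. By gene the share over all libraries was 99.7% for Il13, 99.3% for Csn2, 99.2% for Prg2, 98.4% for Lyz1, 98.2% for Hamp, 97.8% for Abca12, 96.5% for Calcb, 96.2% for Defb6, 95.6% for Slc22a22 and 75.6% for Fcgbp. These shares weight the libraries by their UMIs, and WT 1 gave the most of them for every member but Prg2. In Z/Z 1 and Z/Z 2 alone they were 62.7% and 69.6% for Slc22a22, 34.2% and 28.8% for Fcgbp, and 0% of 1 UMI and 50% of 4 UMIs for Abca12. Since these genes were chosen partly as leaders of this cluster, the shares describe them and test nothing.

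The match with Aire itself was looser, and it differed from gene to gene. Cells with at least 1 Aire UMI held 95.5% of the Il13 UMIs and 89.1% of the Calcb UMIs in TECs, but 53.2% for Defb6, 42.4% for Abca12 and 33.3% for Lyz1. The last 3 shares hang on single cells. A WT 1 cell with 0 Aire UMIs held 1203 of the 2993 Lyz1 UMIs, and another held 853 of the 3100 Defb6 UMIs. Of the 330 Abca12 UMIs in WT 1 cells with Aire, 237 and 87 came from cells with 1 Aire UMI each. After each Aire-high cell had been thinned to 2000 UMIs, Il13 was seen in 15.5% of WT 1 cells with 0 Aire UMIs (155 cells), 25% of those with 1 (52 cells) and 34.5% of those with 2 or more (58 cells). The same order held in Z/Z 1 (0%, 5.26% and 20%) and Z/Z 2 (2.38%, 16.7% and 24%), and in WT 2 the cells with 0 Aire UMIs had the lowest share (6.90% of 29 cells). Hamp ran the other way in 3 libraries, from 18.7% to 8.62% in WT 1, from 37.9% to 0% of 8 cells in WT 2 and from 27.8% to 5% in Z/Z 1, and did not do so in Z/Z 2 (9.52% to 12%). The thinned Abca12 UMIs, 25 in WT 1 and 5 in WT 2, all came from cells with 0 Aire UMIs left after thinning. In all these classes the Aire UMIs were counted after thinning too. In WT 1 an Aire UMI was left in 110 of 265 cells, against 205 of 276 cells before thinning. A cell with 0 Aire UMIs here need not lack Aire.

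A finer clustering, described after its values were seen, split the Aire-high cluster into 3 groups, named here by a leading gene, which hold all but 2 of its 461 cells and 1 cell from outside it. The S100a8-led group (152 cells) had the most Aire, 627 CPM, and the cell cycle gene Mki67 at 105 CPM. The Spink1-led group (248 cells) had 293 CPM of Aire and was also led by genes of the cornified skin layer, with Lor at 233 CPM and Krtdap at 691 CPM. Lor was seen in few TECs (23, 3, 12 and 8 cells), with 1453, 78, 34 and 8 UMIs. Its level therefore describes few cells of the group, mostly of WT 1. The Ccl20-led group (60 cells) had 192 CPM of Aire and carried Ccl20 at 3971 CPM and Gp2 at 2742 CPM, both known from gut M cells, and its cells were shallow, with a median of 4171.5 UMIs against 33015 and 20639 in the other groups.

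The members divided among these groups. Lyz1 (3100 CPM), Csn2 (2792 CPM), Hamp (1631 CPM) and Prg2 (1431 CPM) each had their highest level in the Ccl20-led group, against 76.4, 537, 83.1 and 109 CPM in the S100a8-led group. A single WT 1 cell held 1203 of the 1859 Lyz1 UMIs of the Ccl20-led group, and 1 Z/Z 2 cell held 554 of its 858 Prg2 UMIs. Without that cell the group was at 1192 CPM of Lyz1 and 535 CPM of Prg2. Abca12 lay almost wholly in the Spink1-led group, with 122 CPM against 0.577 and 0, and Slc22a22 (126, 26.4 and 31.7 CPM) and Defb6 (357, 131 and 102 CPM) were also highest there. Calcb was highest in the S100a8-led group at 719.6 CPM, with 360 CPM in the Spink1-led and 649 CPM in the Ccl20-led group, and Il13 was nearly level at 142, 132 and 93.4 CPM in the Spink1-led, S100a8-led and Ccl20-led groups.

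**Figure D3:**
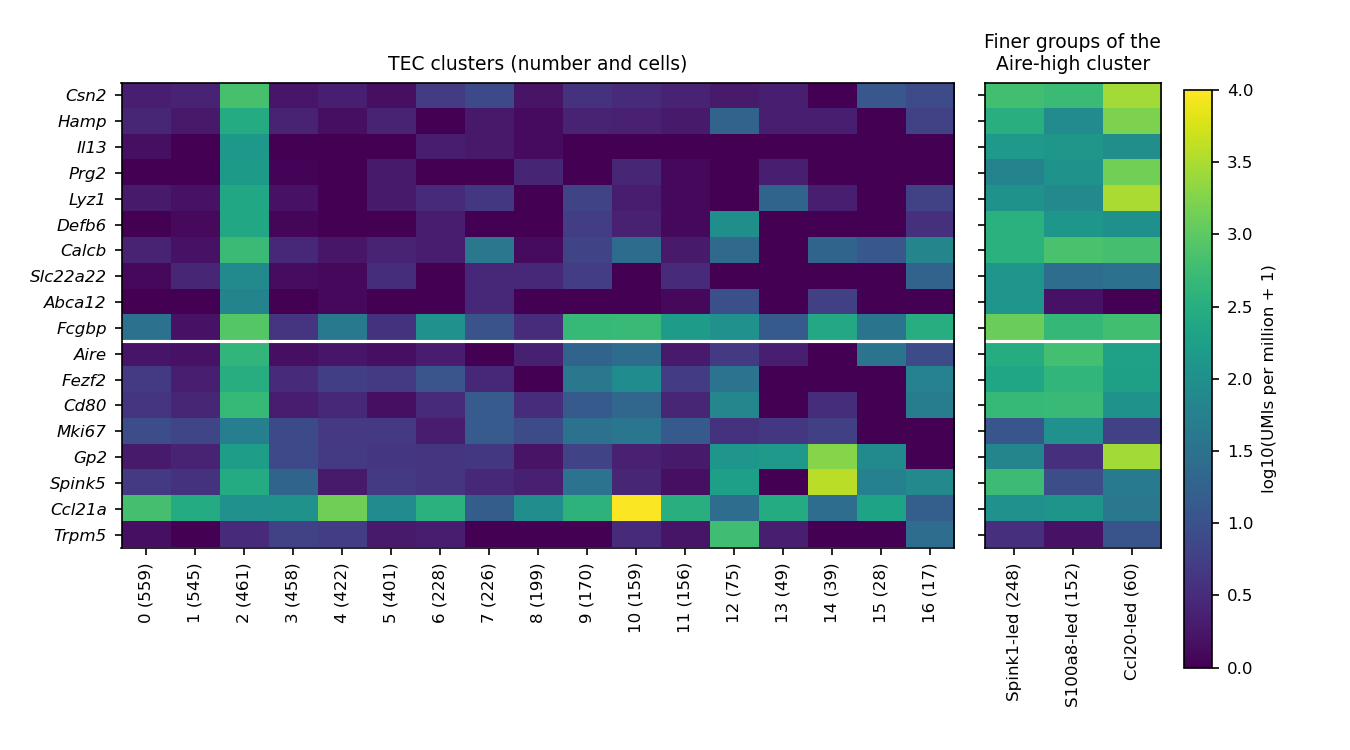
Members (above the white line) and reference genes (below it) as log10(CPM + 1), in colour, over the TEC clusters on the left and the 3 finer groups of the Aire-high cluster on the right, with the number of cells in parentheses. Cluster 2 on the left is the Aire-high cluster; Fcgbp is the only member with a level above 100 CPM in several other clusters, and Lyz1, Csn2, Hamp and Prg2 peak in the Ccl20-led group.

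The groups took different shares of the Aire-high cells in the 2 genotypes. The S100a8-led group made up 27.5%, 27.7%, 50% and 42.5%, and the Ccl20-led group 15.6%, 17%, 6.90% and 6.25%, which in Z/Z are 4 and 5 cells. The differences in share were not tested. Within the Spink1-led group (157, 26, 26 and 39 cells), Hamp, Lyz1, Csn2 and Calcb had both Z/Z libraries above both WT libraries. The share of all genes that do so was not computed for the finer groups, so nothing is read from these orders. A single cell held 165 of the 272 Hamp UMIs of Z/Z 1 in this group. Another held 168 of the 365 Lyz1 UMIs of Z/Z 2. Hamp was at 319.9, 127, 676 and 454 CPM and Lyz1 at 54.7, 33.4, 182 and 392.3 CPM. Csn2 was at 584, 589, 806 and 641 CPM and Calcb at 299, 237, 746 and 574 CPM. Defb6 was at 454, 342, 69.6 and 73.1 CPM, Slc22a22 at 156, 145, 2.49 and 33.3 CPM, and Abca12 at 156, 149, 0 and 0 CPM in the same group. In the S100a8-led group the order was the reverse for Calcb (720.1, 887, 641 and 703 CPM) and Csn2 (636, 1122, 99.2 and 361 CPM), both lower in Z/Z.

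Single cells showed a mosaic. Among Aire-high cells, the 32 top WT cells for each gene, of 323, held 93.3% of the WT Lyz1 UMIs, 90.1% of the Prg2 UMIs, 86.8% of the Slc22a22 UMIs and 86.3% of the Hamp UMIs. The same number of top cells held 46.6% for Fcgbp, 46.3% for Calcb and 43.0% for Aire. Over WT cells with at least 1 UMI of the gene, the median was 3 UMIs for Lyz1, 3 for Prg2 and 4 for Hamp, whose highest cells had 1203, 112 and 355. It was 9.5 for Calcb, 12 for Csn2 and 20 for Fcgbp.

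**Figure D4:**
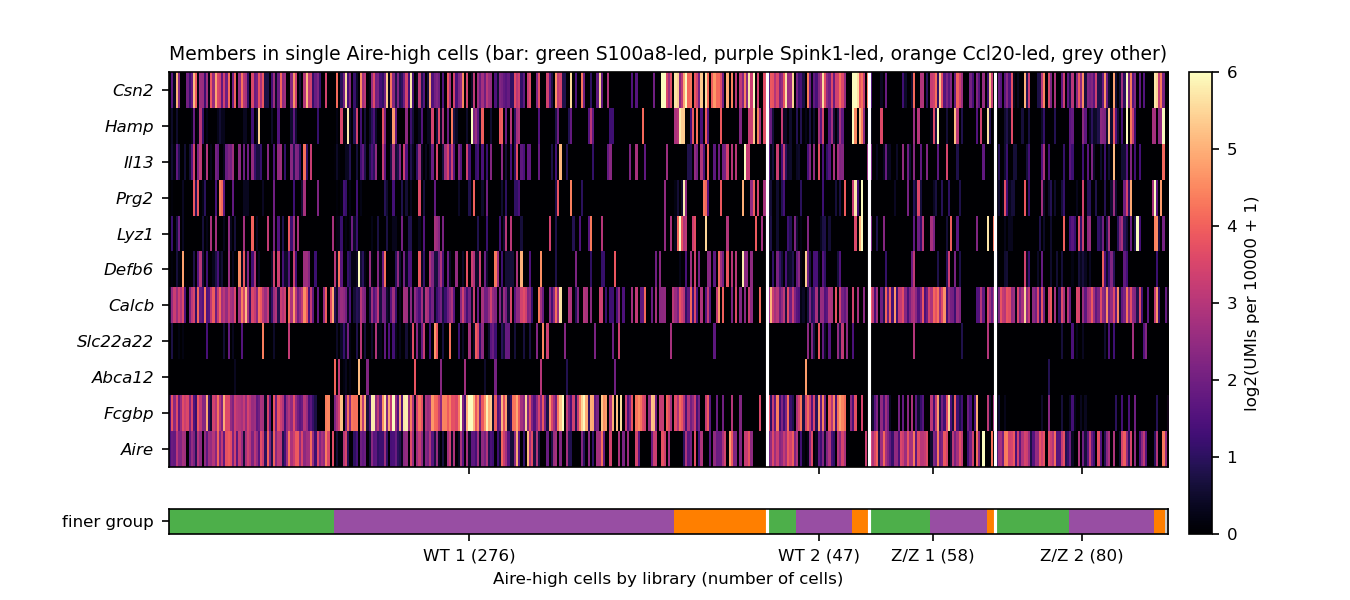
Each column is 1 of the 461 Aire-high cells, grouped by library and finer group (bar beneath), and colour gives log2(UMIs per 10000 + 1) of the 10 members and Aire. Calcb, Csn2 and Fcgbp fill many WT cells, while Lyz1, Prg2, Hamp and Abca12 appear as scattered bright cells.

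Thinned to 2000 UMIs, an Aire-high cell showed a mean of 2.51, 2.72, 1.63 and 1.54 of the 10 members. The difference was -1.02 members per cell, with a spread between libraries of 0.115 (pooled SD, n = 2 per genotype). Since the members were chosen in part as lower in mutant epithelium, this difference describes them and tests nothing. Thinning left out 11, 1, 1 and 1 shallower cells, and without thinning the means were 4.41, 4.91, 3.28 and 3.85. Fibroblasts, which should lack these genes, showed 0.034, 0.0314, 0.0114 and 0.0111 members per cell at the same depth, from cells with medians of 13125, 13617, 9872 and 9541 UMIs.

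Calcb was seen in 50.6% (exact 95% interval 44.4 to 56.7), 47.8% (32.9 to 63.1), 50.9% (37.3 to 64.4) and 53.2% (41.6 to 64.5) of the thinned cells, and unthinned in 76.4%, 78.7%, 84.5% and 82.5%. Fcgbp was seen in 61.5%, 54.3%, 31.6% and 2.53% (unthinned 84.4%, 80.9%, 67.2% and 20%), so that Z/Z 2 stood far below Z/Z 1. Prg2 in Z/Z 1 was seen in 0 of 57 cells at this depth, in 4 of 53 cells (7.55%) when cells were thinned to 5000 UMIs and in 19.0% without thinning. No member was in more than 1.87% of the thinned fibroblasts of a library. The intervals and limits cover counting error only.

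**Figure D5:**
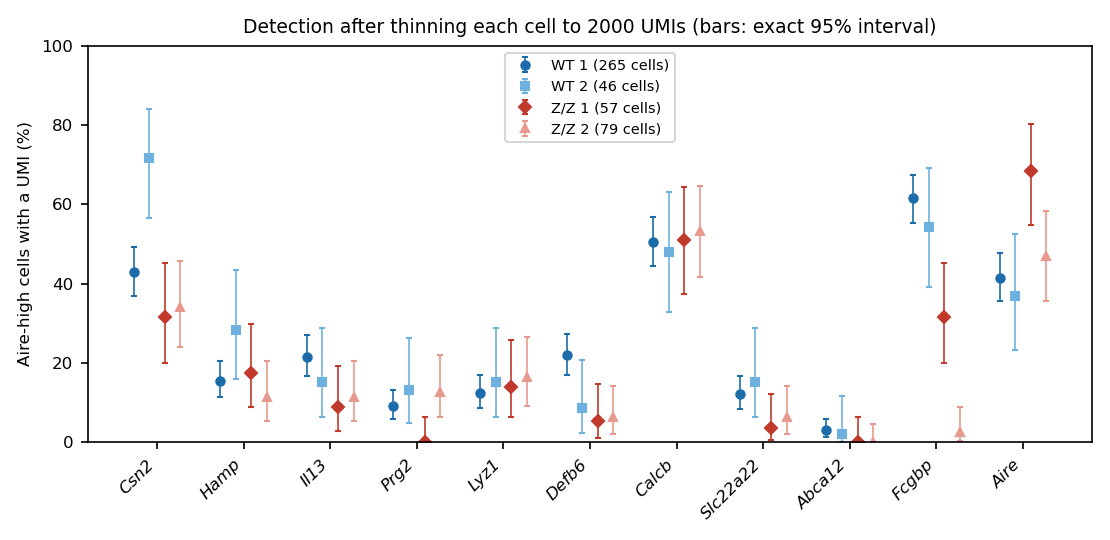
Share of Aire-high cells with a UMI (percent) after thinning each cell to 2000 UMIs, for each library, with exact 95% binomial intervals. The intervals of the 4 libraries overlap for all members but Csn2, Defb6 and Fcgbp, and for Fcgbp Z/Z 2 at 2.53% lies below the other 3.

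The number of cells with both members of a pair was set beside the number their own shares give when taken as independent within each library. Of 45 pairs, 35 had at least 5 expected cells in WT, and their median ratio of observed to expected was 1.15. The ratio was over 1.5 in 4 of them: Hamp with Prg2 (13 cells seen, 5.41 expected), Hamp with Lyz1 (13 and 7.08), Csn2 with Prg2 (24 and 14.6) and Prg2 with Defb6 (9 and 5.77). None was under 0.67. The first 3 pairs join genes that were highest in the Ccl20-led group. In Z/Z 9 pairs had at least 5 expected cells, and their ratios ran from 0.98 (Calcb with Fcgbp) to 1.87 (Csn2 with Lyz1, 13 cells seen and 6.97 expected).

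Il13, Prg2 and Lyz1 are also made by blood cells, and markers of those cells were present in the Aire-high cluster, at levels that differed between the lists. The 5 eosinophil markers summed to 40.1 to 72.2 CPM in WT and 53.5 to 120.1 CPM in Z/Z, with Prg3 and Il5ra giving most of it, Siglecf at 0 in WT 2 and Z/Z 1 and Ccr3 at 0 in WT 2. Prg3, the neighbour and homologue of Prg2, had 273, 23, 29 and 186 UMIs there. Ptprc, which encodes CD45, was in 12% of Prg2-positive and 15.2% of Prg2-negative Aire-high cells, in 14.8% and 14.0% for Il13, and in 16.7% and 13.3% for Lyz1, while Epcam was in 96% of Prg2-positive, 97.4% of Il13-positive and 96.4% of Lyz1-positive cells. The macrophage list summed to 418 to 1114 CPM, mostly Lyz2 and with Adgre1 at 0 in Z/Z 1, and the T cell list to 23.7 to 44.4 CPM, with all 6 markers seen in each library. The list for ILC2 or mast cells summed to 58.7 to 110.3 CPM, mostly Kit and Gata3, with Cpa3 at 0 in 3 libraries and Mcpt4 at 0 in all but WT 1. The part of blood cells in the members' levels was not tested.

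Outside the Aire-high cluster most TEC UMIs of the members, summed over the libraries, were of Fcgbp. It was at 428, 355, 45.2 and 6.94 CPM in the other TECs. In the cluster rich in Ccl21a, the chemokine of early medullary TECs, it was at 1489.7, 1167, 553 and 41.0 CPM (25, 4, 56 and 74 cells). In the cluster rich in Prss16, a protease of cortical TECs, it was at 382 and 335 CPM in WT and had 0 UMIs in the 34 and 71 cells of Z/Z. Defb6 also had UMIs in the cluster rich in Trpm5, a channel of tuft cells. There WT 1 held 104 UMIs over a total of 39 cells, and the other libraries held 0 (7, 7 and 22 cells). Few cells carried them, since only 7 WT 1 TECs outside the Aire-high cluster had any Defb6 UMI (110 UMIs in all). Calcb was at 66.3 CPM in a cluster of 17 cells, with 5, 14 and 7 UMIs in WT 1, Z/Z 1 and Z/Z 2 and no cell of WT 2, and at 38.7 CPM (44 UMIs) in another of 226 cells.

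In fibroblasts, a lineage the choice of members did not use, 5 members passed the filter on low counts (Csn2, Hamp, Calcb, Slc22a22 and Fcgbp). Fcgbp, with 79, 15, 10 and 1 UMIs, was called lower in Z/Z (log2 fold change -3.69 ± 0.63, adjusted p = 0.016, edgeR quasi-likelihood), where 1.24% of the 13872 genes tested were called lower and 1.74% higher. The other 4 did not pass (adjusted p from 0.20 to 0.62). Over its alternatives the adjusted p of Fcgbp ran from 6.9e-10 to 0.22, and its call was lost without WT replicate 1 (adjusted p = 0.12, edgeR), without Z/Z replicate 1 (0.22) and without Z/Z replicate 2 (0.21). Prg2 did not pass the filter, with 4, 44, 6 and 6 UMIs in fibroblasts. Under 4 alternatives it was fitted, and edgeR called it lower without a filter (log2 fold change -3.32 ± 0.58, adjusted p = 9.7e-07) and without WT replicate 1 (-4.50 ± 0.54, adjusted p = 0.0022), but not without Z/Z replicate 1 (adjusted p = 0.57) or Z/Z replicate 2 (0.66). Empty droplets carried Fcgbp at 333, 133, 36.7 and 8.20 CPM, and Csn2 at 161, 168, 25.03 and 29.6 CPM, so that free RNA of both was lower in Z/Z as well. Cells of a library share its free RNA, and the part of free RNA in the fibroblast counts was not tested. The call of Fcgbp therefore cannot tell a lower level in fibroblasts from less free RNA. Fcgbp could also meet the filter on low counts through the WT libraries, where it was higher. Its adjusted p is not read as an independent test of the members.

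The regulators of the pathway gave context from a list of 20 genes, all of them tested in TECs. In Z/Z 9 were called lower and 1 higher, against 11.7% and 9.70% of all genes tested, and the list's median log2 fold change was -0.64 beside 0.00 for all genes. The largest falls by edgeR's quasi-likelihood test, each a log2 fold change with its standard error, were those of Cd80 (-2.93 ± 0.39, adjusted p = 0.011), the transcription factor Irf4 (-2.16 ± 0.42, adjusted p = 0.025), the deacetylase Sirt1, a cofactor of Aire (-2.09 ± 0.23, adjusted p = 0.0092), and Cd40, the receptor that promotes medullary TEC maturation (-2.08 ± 0.31, adjusted p = 0.014). Ltbr, the lymphotoxin β receptor, rose by 1.02 ± 0.21 (adjusted p = 0.028, edgeR). Aire changed by -1.95 ± 0.21 (adjusted p = 0.0089, edgeR) and Fezf2 by -1.98 ± 0.31 (adjusted p = 0.015, edgeR). In Aire-high cells 0 of the 20 were called, as were 0 of the tested genes of the lists that follow. Without Z/Z replicate 1 no gene at all was called in TECs (4555 at an unadjusted p under 0.05), so every TEC call here and in the lists that follow is lost without that library.

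Genes that share a home organ with a member, 85 in all, lay mostly in the same cluster. Of those with at least 10 TEC UMIs, over 50% of the UMIs lay in the Aire-high cluster for 5 of 5 milk genes, 9 of 12 liver genes, 5 of 5 type 2 cytokine genes, 5 of 5 eosinophil granule genes, 6 of 6 Paneth cell genes, 7 of 8 antimicrobial genes, 8 of 8 neuropeptide genes, 2 of 3 kidney transporter genes, 8 of 10 epidermal genes and 9 of 11 mucus genes. Among all 17704 genes with at least 50 TEC UMIs the share was 16.8%. That limit is higher than the 10 UMIs used for the home-organ genes, so the shares are not directly comparable. Of the 61 peers tested in TECs, 21 were called lower and 1 higher (Muc5b, an airway mucin, 3.88 ± 0.73, adjusted p = 0.023), with a median log2 fold change of -2.47. The 4 that fell most were Defb3 (-7.55 ± 1.60, adjusted p = 0.031), Mptx1 (-7.38 ± 1.23, adjusted p = 0.024), Defb14 (-6.95 ± 1.52, adjusted p = 0.033) and Lor (-6.02 ± 0.86, adjusted p = 0.013). WT 1 carried most of the UMIs of several, with 400 of 406 for Defb3 and 259 of 264 for Defb14. Mptx1 had only 26, 2, 0 and 0 UMIs, from 3 cells of WT 1 and 1 of WT 2, so 0 counts in Z/Z set its fold change. The number of peers called was 44 without WT replicate 2 and 8 without Z/Z replicate 2.

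Other peripheral antigens known from textbooks, 17 genes of which 9 were tested, had a median log2 fold change of -2.13, and 3 were called lower. The falls were in Sst (somatostatin, -5.21 ± 0.71, adjusted p = 0.012, edgeR), Atp4a (the gastric proton pump, -2.69 ± 0.34, adjusted p = 0.011) and Gad1 (glutamate decarboxylase, -2.68 ± 0.35, adjusted p = 0.011), and none of the list was called without Z/Z replicate 2. Of 18 transcription factors of mimetic cells, 14 were tested, with 6 called lower and 1 higher and a median of -1.58. The largest falls were in Foxj1 (ciliated cells, -2.38 ± 0.34, adjusted p = 0.013, edgeR), Insm1 (neuroendocrine cells, -2.26 ± 0.17, adjusted p = 0.0083), Hnf4g (enterocytes, -1.97 ± 0.15, adjusted p = 0.0083) and Pou2f3 (tuft cells, -1.78 ± 0.33, adjusted p = 0.022), while Foxi1 (ionocytes) rose by 4.08 ± 0.91 (adjusted p = 0.034). Without Z/Z replicate 2, 4 of these factors were called.

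Genes near the members were often in the same cells. Of 59 genes with a start within 200 kb of a member and at least 50 TEC UMIs, 26 (44.1%) had over 50% of their UMIs in the Aire-high cluster, beside 16.8% of all genes with as many UMIs. The share was uneven over loci. At the casein locus of Csn2 it was 5 of 5 (Sult1b1, Sult1d1, Sult1e1, Csn1s1 and Csn1s2a), at the β-defensin cluster of Defb6 4 of 4 (Defb14, Defb4, Defb5 and Defb3) and at Calcb 2 of 2 (Calca and Insc). At Il13 it was 3 of 8 (Il4, Il5 and Sowaha), at Prg2 4 of 11, at Hamp 5 of 15, at Fcgbp 2 of 9 (Gm44744 and 9530053A07Rik), at Lyz1 1 of 4 (Lyz2) and at Abca12 0 of 1 (Atic), and Slc22a22 had no such neighbour. Of the 58 tested in TECs, 15 were called lower and 6 higher, where 11.7% of all genes tested were called lower and 9.70% higher. Several neighbours, such as Csn1s1, Defb3, Il4 and Lyz2, are also among the home-organ genes above, so the 2 sets of counts are not independent. Beside Il13, the DNA repair gene Rad50 (-0.25 ± 0.17, adjusted p = 0.33, edgeR) and the kinesin gene Kif3a (0.27 ± 0.19, adjusted p = 0.34) were not called.

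Neighbours with the largest counts did not all follow their member. Calca, which encodes calcitonin and the α form of the peptide, had 1681, 4, 226 and 527 UMIs in TECs, while Calcb had 3555, 655, 912 and 1497. Csn1s2a had 437, 4, 41 and 0 UMIs beside 5180, 1308, 523 and 1325 for Csn2. Lyz2 had 2796, 1473, 1021 and 1169 UMIs and a log2 fold change of -2.78 ± 0.51 (adjusted p = 0.022). Calca and Calcb are homologues, so that reads could be split between them.

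The genes most like each member in their pattern were found by Pearson correlation of log2(CPM + 1) over 34 units, each a TEC cluster in 1 library with at least 20 cells. Units of 1 library share its depth and free RNA, and the values are a description. The Aire-high cluster gave 1 unit in each library, so a high r can mean only that both genes were high in those units. Some of the matched genes had few UMIs over all TECs, such as 70 for Dusp27 and 64 for 1700066B17Rik. Il13 was most like Dusp27 (r = 0.99), 1810006J02Rik (0.99) and Nkx2-6 (0.99), and Csn2 like Dusp27 (0.95), 1810006J02Rik (0.94) and Cyp26a1 (0.94). Hamp was most like Mmp7 (0.97), Ptgds (0.95) and Cyp2j13 (0.94), Prg2 like Gh (0.96), Napsa (0.95) and Lyrm7os (0.95), and Lyz1 like 1700066B17Rik (0.92), 2310043L19Rik (0.92) and Lgals2 (0.91). Defb6 was most like Gm31727 (0.98), Bcl2a1d (0.97) and Fam25c (0.96), and Calcb like S100g (0.94), Sncb (0.92) and Ceacam10 (0.92). Slc22a22 was most like Defb19 (0.91), H1foo (0.90) and Stkld1 (0.88), and Abca12 like Gm12606, Atp13a4 and Kprp (0.93 each). Fcgbp had the lowest values, with Slc20a1 at 0.80 and Lingo2 at 0.78, and among the members themselves r ran from 0.37 (Prg2 with Fcgbp) to 0.95 (Il13 with Prg2).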

How the data were processed

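Gene by cell matrices of UMI counts were deposited by the authors; the file headers name Cell Ranger 7.0.1, and the submitters' processing notes the builds GRCm38.p5 and mm10. The labels and the study's methods differ on the chemistry version. Barcodes with over 1000 genes and under 20% mitochondrial UMIs were kept, the top 3.9% of each library by Scrublet score were removed as doublets (399 of 10245; the automatic threshold marked 82), and 9846 cells remained, with 6002974 to 41981243 UMIs per library. Cells were clustered with scanpy 1.11.5 and leidenalg at resolution 1, and at 2 for the finer groups, without the listed genes and without ribosomal and haemoglobin genes, which are also left out of CPM. The TATA motif, the finer groups and the values without the highest cell were chosen after seeing the data. Lineages were named from marker genes; an Epcam-low cluster was counted with the TECs by a rule set after its values were seen. UMIs were summed per library and tested with edgeR 4.0.16 (quasi-likelihood, TMM, filterByExpr, Benjamini-Hochberg over all genes, 0.05), tested on simulated data. DESeq2 1.42.0 was an alternative. Coordinates and neighbours came from GENCODE vM21.

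The members and the gene lists were chosen with earlier results of these data known. Named from each list are the genes that passed in TECs, up to 4 per direction by size; the 3 genes most like each member; and neighbours within 200 kb with at least 50 TEC UMIs. Aire and Fezf2 are named beyond this rule, as are other genes where a sentence says so or sets them beside a member. A gene of 1 list and a gene of the likeness ranking that the rule names are not reported here.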

Additional observations from a re-analysis of the deposited data

How the results depend on the processing

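The members' log2 fold changes over TECs stayed below 0 in all 130 values from 13 alternatives. Prg2 ran from -4.64 without Z/Z replicate 2 to -0.22 without Z/Z replicate 1. Within the Aire-high cluster, 8 of 98 values changed sign, for Calcb, Hamp, Lyz1 and Prg2, and Abca12 could not be fitted under 2 alternatives. Calls depended on the libraries, and the cause was not tested. Leaving out 1 library left 0 to 4431 genes called in TECs (0 without Z/Z replicate 1, 1255 without Z/Z replicate 2), 0 in the Aire-high cluster, 0 to 353 in fibroblasts (242 without WT replicate 2, 0 without either Z/Z replicate), and for the regulators, peers, known antigens and mimetic factors 0 to 10, 0 to 44, 0 to 5 and 0 to 8 genes; a lone library is then assumed to vary like the others. The replicate block gave 2422 calls in TECs, 0 in the Aire-high cluster and 358 in fibroblasts, and Mptx1 lost its call under it; the replicate numbers did not pair the libraries (correlation -0.083 over 18908 genes). DESeq2 called 205 and the fit without a filter 1303 genes in the Aire-high cluster, and cells with an Aire UMI or 2 times the resolution 0. Without a filter, 1369 genes in fibroblasts and 42 peers were called. Of the members' TEC UMIs, a mean over libraries of 88.3% lay in the Aire-high cluster, 72.5% in cells with an Aire UMI and 28.2% in the Aire-richest cluster at 2 times the resolution. Depth limits Abca12 in Z/Z, with 5 UMIs in TECs.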
